A study of Mus musculus with 4 samples.

Results

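The genes described here are 10 genes of Wnt signalling feedback and of the intestinal stem cell: LGR5, ASCL2, SMOC2, CD44, AXIN2, RNF43, ZNRF3, NKD1, NOTUM and DKK1. They were chosen by symbol from the platform's gene names, and the leading 4 (LGR5, NOTUM, DKK1 and CD44) were selected on their measured difference between F5446-treated and untreated cells. For that reason the values of all 10 in this comparison are given as a description, without a test. All 10 had a named probe set, exactly 1 each, among 14884 named genes in all.

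Wnt ligands bind Frizzled and LRP5/6 receptors at the cell surface and keep beta-catenin from being degraded, so that it can enter the nucleus and act with TCF factors. Several of the genes switched on in this way damp the pathway again: RNF43 and ZNRF3 remove Frizzled from the membrane, AXIN2 and NKD1 act in the cytoplasm, and NOTUM and DKK1 are secreted. In the intestinal crypt the pathway maintains the stem cells, which carry LGR5, the receptor for R-spondins, and depend on the transcription factor ASCL2. SW620 is an established human cell line from a metastasis of a colon carcinoma. It carries a truncated APC gene, so its beta-catenin is active without added Wnt.

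The study compared untreated SW620 cells (Ctrl) with SW620 cells given F5446, described as a selective small-molecule inhibitor of the histone methyltransferase SUV39H1, at 50 nM for 2 days. Each group held 2 arrays. Both groups were the same line grown in RPMI medium with serum, and the controls are described as untreated, with no vehicle named. The sources used here do not say whether replicates came from separate cultures, so errors and p-values cover only the spread between the arrays. Mouse is entered as the organism in the sample records, but SW620 is human and the probe sets have human gene names; the data were read as human.

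Across the named genes the replicate arrays correlated at r = 0.994 (Ctrl) and 0.995 (F5446), against 0.943 to 0.945 between groups; these are correlations across genes, which are not independent replicates. SUV39H1 mRNA itself was lower in the treated cells (log2 fold change -1.73 ± 0.08, SE). It was -1.46 when the gene's probe sets were averaged. Values are log2 signal, on which a difference of 1 is a 2-fold change. The median log2 fold change of all named genes was -0.05, and it became 0.07 when the median of its named probe sets was subtracted from each array, called centring below.

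Of the 10 genes, 8 had lower and 2 had higher signal after F5446, and for each gene both F5446 arrays lay outside the range of the 2 controls. Over all named genes the groups did not overlap at 66.2%, with the treated arrays lower at 37.7% and higher at 28.4%. In limma's fit over all named genes, 40.9% were called at an adjusted p under 0.05, 22.7% lower and 18.2% higher. The calls of the 10 are left out. Each of the 8 was at least 2-fold lower and both others at least 2-fold higher, sizes reached by 7.32% and 5.40% of all genes; after centring, AXIN2 was under 2-fold lower, at -0.97 on the log2 scale. Since this contrast chose the leading genes, nothing is read from these counts. The plot of signal by array shows each value.

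**Figure D1:**
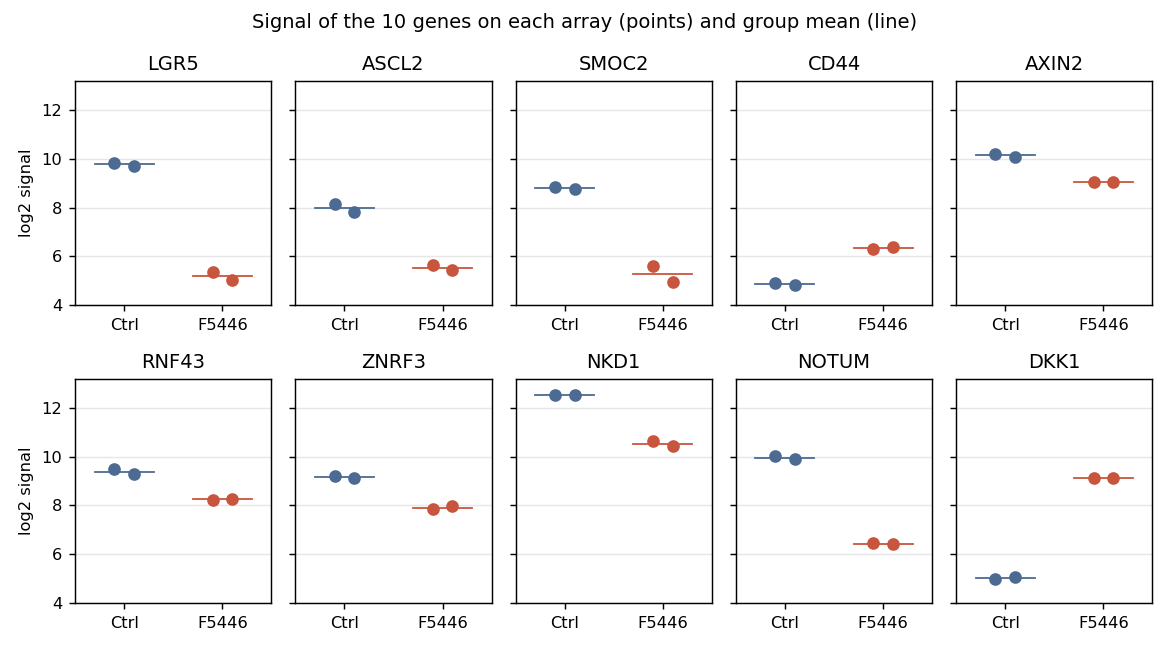
Log2 signal (y axis) of each of the 10 genes on the 2 Ctrl arrays and the 2 F5446 arrays (points), with the group mean as a line. In CD44 and DKK1 the F5446 points lie above the Ctrl points, and in the other 8 genes they lie below.

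Among the stem cell genes, LGR5 (probe set 16754134) had the largest difference of the 10. Its log2 signal was 9.85 and 9.71 on the control arrays and 5.36 and 5.05 on the treated arrays. Both treated arrays were thus more than 4 log2 units below both controls, the closest pair of arrays being 4.35 apart. The mean went from 9.78 ± 0.099 to 5.21 ± 0.22 (SD, n = 2 each). The log2 fold change was -4.58 ± 0.12 (SE), with a 95% interval of -4.85 to -4.31. Of all 14884 named genes, only 3 had a larger fall by fold change.

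SMOC2 (probe set 17014798) encodes a secreted calcium-binding matrix protein that marks crypt base stem cells. Its signal was 8.84 and 8.78 in the controls and 5.62 and 4.94 after F5446. Of the 10 genes it had the widest spread between replicates, since its treated arrays were 0.69 apart and its control arrays 0.065. The log2 fold change was -3.53 ± 0.19 (SE), or 11.5-fold lower. ASCL2 (probe set 16734420), a basic helix-loop-helix factor that drives the stem cell programme, measured 8.14 and 7.81 in the controls and 5.65 and 5.45 after F5446. Its log2 fold change was -2.43 ± 0.14 (SE), or 5.39-fold lower. The control arrays of ASCL2 were 0.33 apart and its treated arrays 0.20. The 95% intervals were -3.96 to -3.10 for SMOC2 and -2.74 to -2.12 for ASCL2. LGR5, SMOC2 and ASCL2 thus all stood lower in both treated arrays, and their changes were not tested against one another.

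CD44 (probe set 16723614), the hyaluronan receptor and a Wnt target in colon tumours, moved the other way from these 3. It measured 4.90 and 4.83 on the control arrays and 6.30 and 6.38 on the treated ones. The control arrays were 0.073 apart and the treated arrays 0.078 apart. The mean went from 4.87 ± 0.052 to 6.34 ± 0.055 (SD, n = 2 each). On the log2 scale the difference was 1.47 ± 0.13 (SE; 95% interval 1.18 to 1.77). CD44 is spliced into many isoforms, and its single probe set does not separate them.

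The 4 genes that feed back on the receptors and in the cytoplasm had lower signal on both treated arrays. RNF43 (probe set 16847095), a membrane ubiquitin ligase that removes Frizzled receptors, measured 9.49 and 9.29 in the controls and 8.23 and 8.26 after F5446. ZNRF3 (probe set 16928699), the related ligase, measured 9.22 and 9.14 in the controls and 7.85 and 7.96 after F5446. Their log2 fold changes were -1.14 ± 0.08 for RNF43 and -1.28 ± 0.08 for ZNRF3 (SE), with 95% intervals of -1.33 to -0.96 and -1.45 to -1.10. Both are the targets that R-spondins and LGR receptors act on.

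AXIN2 (probe set 16847933), a scaffold of the complex that degrades beta-catenin and a widely used readout of Wnt activity, measured 10.2 and 10.1 in the controls and 9.05 and 9.08 after F5446. Its log2 fold change of -1.08 ± 0.07 (SE), or 2.12-fold lower, was the smallest of the 10 in size. NKD1 (probe set 16818808), which binds Dishevelled, measured 12.5 on both control arrays and 10.7 and 10.4 on the treated arrays. It was 3.97-fold lower (log2 fold change -1.99 ± 0.07, SE), with a 95% interval of -2.15 to -1.83. The differences among these 4 genes were not tested.

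The 2 secreted antagonists went in opposite directions. NOTUM (probe set 16850047), an enzyme that removes the lipid that Wnt ligands need to bind Frizzled, measured 10.0 and 9.90 in the controls and 6.47 and 6.40 after F5446. The mean went from 9.97 ± 0.0995 to 6.43 ± 0.047 (SD, n = 2 each). This difference of -3.53 ± 0.08 (SE) on the log2 scale ranked at 30 from the largest fall among all named genes. SMOC2 ranked at 32 by nearly the same fold change, but with a standard error of 0.19 in place of 0.08. NOTUM's replicates were at most 0.14 apart.

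DKK1 (probe set 16705011), which blocks the Wnt co-receptors LRP5 and LRP6, measured 4.97 and 5.07 in the controls and 9.14 and 9.14 after F5446. Its treated arrays were 0.0066 apart, the tightest pair of treated arrays among the 10 genes. The mean went from 5.02 ± 0.076 to 9.14 ± 0.0047 (SD, n = 2 each). The log2 difference of 4.12 ± 0.10 (SE; 95% interval 3.90 to 4.34) ranked at 3 from the highest rise. Its control arrays were 0.11 apart.

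Set against each other on the scale of log2 fold change, DKK1 stood above the 8 lower genes by 5.20 (AXIN2) to 8.70 (LGR5), and above CD44 by 2.64. DKK1, LGR5, NOTUM and SMOC2 were the 4 of the 10 that differed by more than 10-fold, as did 0.457% of all named genes. The lower 8 thus held both stem cell genes and negative regulators of the pathway, NOTUM among them, and the antagonist that was higher was DKK1. The plot of the differences with their intervals shows this order, and the plot against all named genes shows where the 10 lie.

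**Figure D2:**
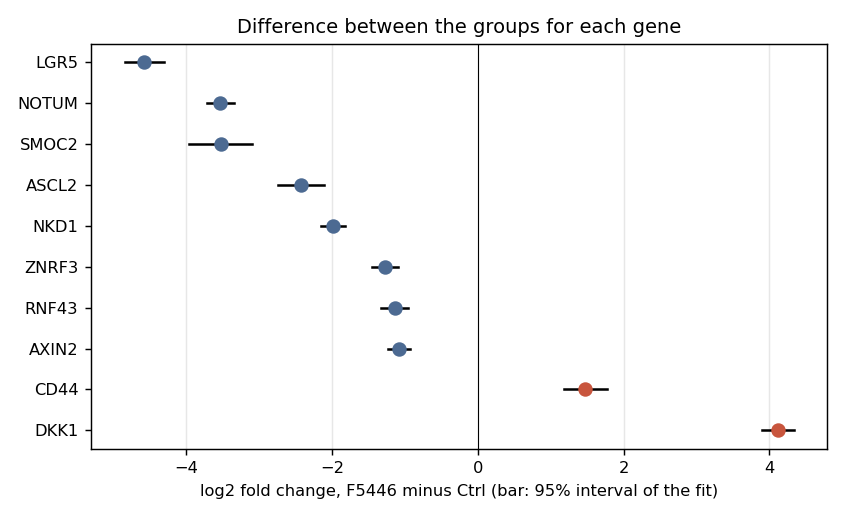
Log2 fold change of F5446 minus Ctrl (x axis) for each of the 10 genes, in order, with bars for the 95% interval of limma's fit. The values run from -4.58 (LGR5) to 4.12 (DKK1). The bars are a description and not a test, since this contrast chose the leading genes.

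**Figure D3:**
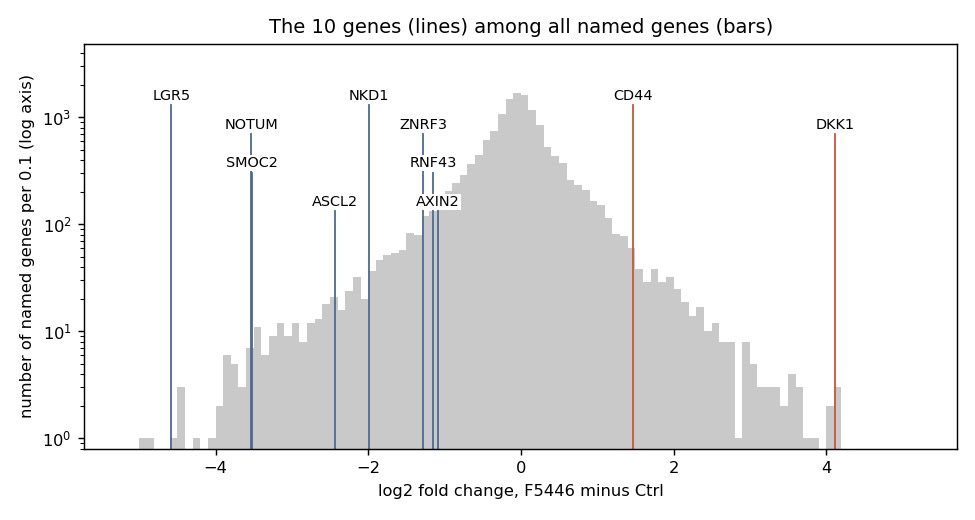
Number of named genes (y axis, log scale) by log2 fold change of F5446 minus Ctrl (x axis), with a line for each of the 10 genes. DKK1 lies in the outermost bar on the right and LGR5 near the left end, while AXIN2, RNF43 and ZNRF3 lie where many other genes do.

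None of the 10 fell below 4.42, the median of all probe sets and arrays, on any array. The files carry no detection calls, so the low values of LGR5, SMOC2 and ASCL2 after F5446, and of CD44 and DKK1 before it, may lie near background, and their fold changes may then understate the true ones. RNA was taken from whole cultures, so less RNA in each cell and fewer cells carrying a gene cannot be told apart.

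Of 23 other antagonists measured that act outside the cell or at its surface, 6 fell, 1 rose and 16 did not pass limma's test. The 26.1% that fell was near the 22.7% of all named genes, and 4.35% rose against 18.2%, with a median log2 fold change of -0.17 beside -0.05 over all named genes. KREMEN1, a receptor through which DKK1 acts, fell from 9.04 and 9.06 to 6.15 and 5.95 (adjusted p = 5.67e-08). SFRP5, a secreted Frizzled-related protein, fell 6.88-fold (2.95e-07), and APCDD1, a membrane inhibitor and known Wnt target, 4.45-fold (5.76e-06). All 3 were lower on both treated arrays than on both controls, but groups lying apart was a condition for naming them.

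The other DKK genes were named after their values were seen. DKK4, another secreted antagonist and Wnt target, measured 4.87 and 5.32 in the controls and 3.86 and 3.94 after F5446, a fall of 2.29-fold (adjusted p = 0.00074). DKK2 fell by 0.57 on the log2 scale (adjusted p = 0.021), with all its values under 4.42, the median of all probe sets. DKK3, the 1 that rose among the antagonists other than DKK1 and NOTUM, went from 4.24 and 4.80 to 5.25 and 4.99 (log2 fold change 0.60 ± 0.21, SE, adjusted p = 0.046). Leaving out Ctrl replicate 1, F5446 replicate 1 or F5446 replicate 2 lost the call of DKK3 (adjusted p = 0.27, 0.29 and 0.11) and that of DKK2 (0.10, 0.11 and 0.083). DKK2 also lost its call after centring (0.055) and with all probe sets tested together (0.060). DKK3 did so with quantile normalization (0.055), without an intensity trend (0.082), with all probe sets tested together (0.14) and with the replicate block (0.086).

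Of the R-spondins, LGR receptors and other parts of the Wnt receptor complex, 11 of 23 measured genes fell, 2 rose and 10 did not pass, at a median of -0.52. That is 47.8% lower and 8.70% higher, against 22.7% and 18.2% of all named genes. The median was -0.34 without F5446 replicate 2, and the count lower ran from 9 to 10 with 1 array left out. LGR4, the close relative of LGR5, fell 2.85-fold (adjusted p = 0.00019), from 6.31 and 6.56 to 4.65 and 5.21. LGR6, the third receptor of this family and named after its value was seen, rose 1.59-fold (adjusted p = 0.00071), from 7.36 and 7.21 to 8.06 and 7.84. The receptor family of LGR5 thus had members called in both directions.

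Among the receptors, FZD3 fell 4.16-fold (adjusted p = 5.94e-07) and the co-receptor PTK7 3.19-fold (1.44e-05). The co-receptor LRP5, which DKK1 binds, fell 1.81-fold (adjusted p = 8.39e-05), while LRP6, which it also binds, differed by -0.10 ± 0.07 (SE, adjusted p = 0.32); both were named after their values were seen. The 4 R-spondin genes, which encode the ligands of LGR5, did not pass. Their log2 fold changes ran from -0.19 (RSPO3) to 0.07 (RSPO4). RSPO2 and RSPO3 were under 4.42 on every array, so a change in these genes may not be visible. The R-spondins and FZD7 were also named after their values were seen. FZD7 was the other gene that rose (2.19-fold), and its call was lost without F5446 replicate 1 (adjusted p = 0.076), which left 1 gene higher.

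Of 14 measured inhibitors inside the cell, 6 rose, 3 fell and 5 did not pass, at a median of -0.01 (0.10 after centring). That is 42.9% higher and 21.4% lower, against 18.2% and 22.7% of all named genes. NKD2, the relative of NKD1, fell 2.79-fold (adjusted p = 5.03e-06), from 8.36 and 8.16 to 6.87 and 6.69. CXXC5, which binds Dishevelled, fell 3.62-fold (3.00e-07), and BTRC, the ubiquitin ligase subunit that recognises beta-catenin, rose 1.74-fold (2.54e-05). AXIN1, the relative of AXIN2 that is not itself a Wnt target and was named after its value was seen, rose 1.36-fold (0.0022), from 7.51 and 7.44 to 7.90 and 7.93. AXIN1 and AXIN2 thus had opposite signs. Without F5446 replicate 1, 3 of these inhibitors rose in place of 6.

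Of 8 measured nuclear effectors, 4 rose (50.0%, against 18.2% of all named genes) and 3 fell (37.5%, against 22.7%), at a median of 0.18. The median was 0.28 without Ctrl replicate 1, 0.08 without Ctrl replicate 2 and 0.0096 when probe sets of the same gene were averaged. The co-activator genes CREBBP and EP300 rose 1.91-fold (adjusted p = 6.55e-06) and 1.60-fold (1.03e-05). LEF1, a TCF-family factor and Wnt target, fell by 0.76 on the log2 scale (adjusted p = 0.022), from 5.92 and 5.26 to 4.69 and 4.98. That call was lost (adjusted p = 0.17, 0.20 and 0.077) when Ctrl replicate 1, F5446 replicate 1 or F5446 replicate 2 was left out, over a range of 0.0077 to 0.20 across the alternatives. It was also lost without an intensity trend in the variance (0.062), with all probe sets tested together (0.098) and with the replicate number as a block (0.052). Without F5446 replicate 2, 1 effector fell. CTNNB1, TCF7 and TCF7L2 had no named probe set and were not analysed here.

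Of 30 other intestinal stem cell genes measured, 18 fell (60.0%, against 22.7% of all named genes), 3 rose (10.0%, against 18.2%) and 9 did not pass, at a median of -0.48. The count that fell ran from 14 (without F5446 replicate 1) to 17 with 1 array left out. MYB, a transcription factor of crypt progenitors, fell 21.6-fold (adjusted p = 1.42e-07), DACH1 4.85-fold (4.83e-06) and SORBS2 3.29-fold (5.26e-06). Among genes named after their values were seen, the Wnt target SP5 fell 2.82-fold, PROM1 2.01-fold, LRIG1 2.02-fold and SOX9 1.30-fold. OLFM4, a marker of human crypt base cells that was named in the same way, was under 3.5 on every array and differed by -0.06 ± 0.18 (SE, adjusted p = 0.85). At such low signal a fall of OLFM4 may not be visible. The 3 that rose, named in the same way, were NAV1 (1.83-fold, adjusted p = 0.00016), ZBTB38 (1.73-fold, 0.00022) and TRIM24 (1.17-fold, 0.034). Stem cell genes thus differed among themselves in the size of the change, from LGR5 and MYB to SOX9, and in its direction.

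Of 47 other Wnt target genes measured, 16 rose (34.0%, against 18.2% of all named genes), 15 fell (31.9%, against 22.7%) and 16 did not pass. The median was -0.12, or -0.06 without Ctrl replicate 1 and -0.0034 after centring. BIRC5, which encodes survivin and is expressed in dividing cells, fell 14.6-fold (adjusted p = 4.52e-07) and BMP4 6.12-fold (9.53e-09), while NRP1, a semaphorin and VEGF co-receptor, rose 5.47-fold (1.34e-07). MYC and CCND1, the best-known targets in colon carcinoma and named after their values were seen, rose 2.28-fold and 1.59-fold. They shared the direction of CD44, while PROX1, also a target in colon tumours and named after its value was seen, fell 3.17-fold in the direction of LGR5.

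Of 23 measured hyaluronan and CD44 partners, 4 rose (17.4%, against 18.2% of all named genes), 7 fell (30.4%, against 22.7%) and 12 did not pass. The median was -0.05, or 0.07 after centring and -0.12 without Ctrl replicate 2. HMMR, another hyaluronan receptor that is also a mitotic gene, fell 21.5-fold (adjusted p = 1.03e-08). ESRP1, a splicing factor that promotes the variable exons of CD44, fell 2.33-fold (1.36e-06), from 9.64 and 9.77 to 8.47 and 8.50. CEMIP, which takes part in hyaluronan breakdown, fell 2.21-fold (1.40e-05). The hyaluronan synthase HAS2 fell 1.93-fold, and the cytoskeletal linkers EZR and MSN, which bind the tail of CD44, rose 1.23-fold and 1.20-fold; these 3 were named after their values were seen. Without an intensity trend the calls of EZR and MSN were lost (adjusted p = 0.070 and 0.085).

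Genes of NF-kB, AP-1 and ERK feedback, pathways known to act on CD44, rose in 20 of 24 cases, fell in 2 and did not pass in 2, at a median of 1.09. That is 83.3% higher and 8.33% lower, against 18.2% and 22.7% of all named genes. DUSP5, a phosphatase of ERK, rose 18.3-fold, EREG, an EGFR ligand, 17.8-fold and HBEGF, another EGFR ligand, 9.41-fold (adjusted p = 3.73e-08, 5.24e-08 and 2.86e-08). When its probe sets were averaged, the log2 fold change of DUSP5 was 2.82 in place of 4.19. FOS and JUND, named after their values were seen, were the 2 that fell, and the call of JUND was lost without any 1 of the 4 arrays, after centring, without an intensity trend and with all probe sets tested together (adjusted p from 0.073 to 0.32). The part of these genes in the rise of DKK1 and CD44 was not tested.

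Genes of cell division fell without exception: all 24 measured were called lower (100%, against 22.7% of all named genes), at a median of -3.07. KIF20A, TOP2A and GINS2 fell 30.4-fold, 28.7-fold and 21.1-fold (adjusted p = 9.53e-09, 6.85e-09 and 1.56e-08), and MKI67, named after its value was seen, 10.4-fold. The median lay between the log2 fold changes of SMOC2 and ASCL2. Whether fewer cells were dividing, and what part that had in the lower signal of the stem cell genes, was not tested.

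Genes of absorptive and secretory differentiation mostly did not pass: of 29 measured, 4 rose, 3 fell and 22 did not pass, at a median of 0.02 (0.13 after centring). VIL1, the brush-border gene for villin, fell 14.7-fold (adjusted p = 9.53e-09), DCLK1, a tuft cell gene, rose 4.22-fold (4.25e-05), and CEACAM5 rose 3.80-fold (1.01e-05). Both control values of DCLK1 (3.58 and 3.87) and 1 of CEACAM5 (4.30) were under 4.42, so these 2 folds may be understated. Of these 29 genes, 9 were under 4.42 on every array. Of this list 13.8% rose and 10.3% fell, against 18.2% and 22.7% of all named genes.

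**Figure D4:**
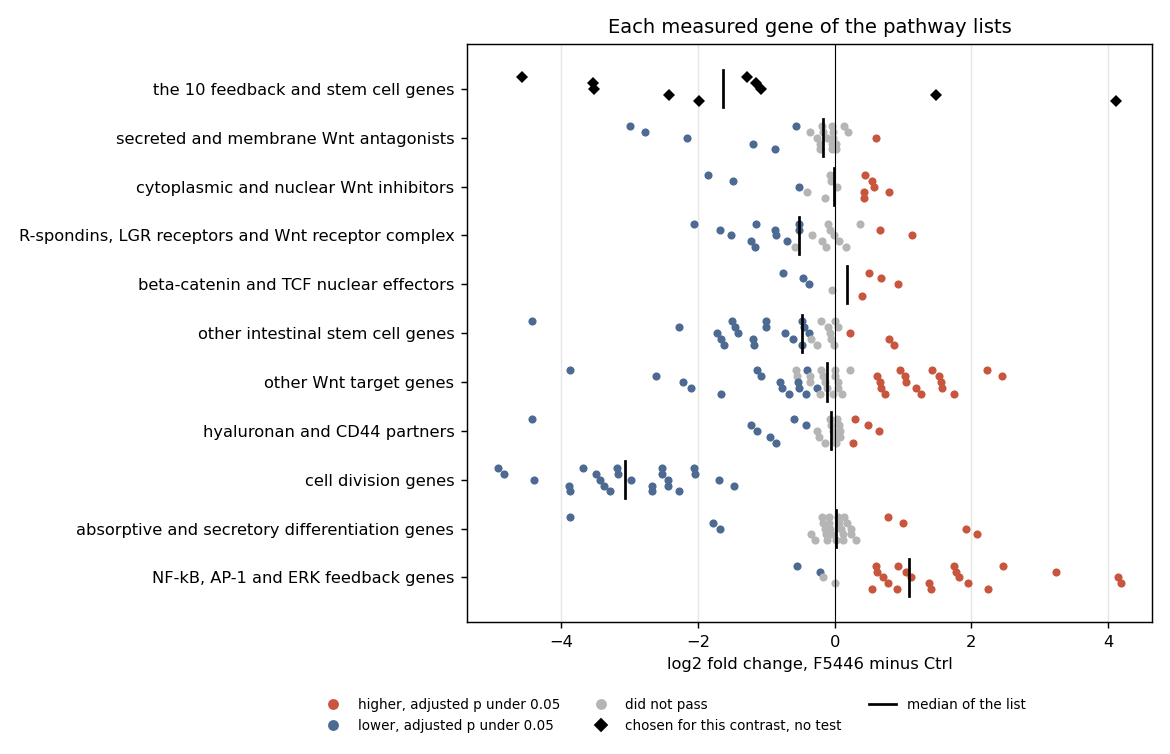
Log2 fold change of F5446 minus Ctrl (x axis) for each measured gene of the lists described, coloured by limma's call, with the list's median as a black line; black diamonds are the 10 genes, which have no test. All 24 cell division genes lie to the left of 0, and 20 of 24 NF-kB, AP-1 and ERK feedback genes were called to its right.

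The genes whose pattern over the 4 arrays was most like that of LGR5, NOTUM, DKK1 and CD44 were found by the smallest Euclidean distance between values centred on each gene's mean, in log2 units. For LGR5 these were GINS2 (0.272), TOP2A (0.333) and HMMR (0.390), and for NOTUM KIF11 (0.0849), E2F8 (0.0866) and LMNB1 (0.123). GINS2 acts in DNA replication, TOP2A, HMMR and KIF11 in mitosis, E2F8 is a cell cycle transcription factor and LMNB1 encodes lamin B1. For DKK1 they were the non-coding RNA LINC00622 (0.297), EREG (0.349) and CDA (0.357), the gene for cytidine deaminase. For CD44 they were OSGIN1 (0.0485), SFN (0.0535), the gene for 14-3-3 sigma, and WASH7P (0.0555). With 4 arrays in 2 groups, this distance mostly matches the size of the difference between the groups.

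Markers of the cell line's origin were present in part. EPCAM, KRT18 and KRT19 measured above 10 on every array, and CDX2 measured 5.39 to 6.31, while KRT20 was under 4.42 on every array. Of 10 measured colon epithelium markers 5 fell (50%, against 22.7% of all named genes) and 2 rose (20%, against 18.2%), at a median of -0.39. Their summed linear signal was 8405 to 8444 in the controls and 4829 to 4879 after F5446. In such sums the brightest genes weigh most, so they do not describe a list as a whole. None of the 3 endothelial markers measured (PECAM1, VWF and KDR) exceeded 4.42 on any array. The immune list had 5 of 11 markers measured (CD14, CD68, LYZ, NKG7 and PRF1), at a median log2 fold change of 0.07. CD68 rose 12.9-fold, to a mean of 11.5, LYZ fell 3.45-fold, PRF1 fell 6.08-fold and CD14 was under 4.42 throughout. The summed signal of the list, in which CD68 was the brightest gene after F5446, went from between 958 and 1011 to between 3009 and 3082. The stromal list had 4 of 10 measured, with VIM 2.08-fold higher, LUM 8.12-fold lower and DCN under 4.42 on every array. Its median was -0.03, and its sum, in which VIM was the brightest gene, was 552 to 574 in the controls and 850 to 892 after F5446. The part of these markers in the differences of the 10 genes was not tested.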

How the data were processed

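The authors deposited values for 53617 probe sets on 4 single-colour arrays, hybridised with biotin-labelled cDNA. The values are read as log2 signal because they run from 0.710 to 13.8, and the table as deposited does not state its scale. Per the submitters' processing notes, Partek was used. The sources used here do not give the background correction, normalization or summary. Array medians ran from 4.40 to 4.44, and any scaling between arrays would hide a change in total RNA. Precision is limited by the number of arrays, 2 per group.

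The platform's annotation names 16098 probe sets; the probe set with the highest mean stood for each of 14884 genes. The test was limma's (version 3.58.1, R 4.3.3), with lmFit on group alone, eBayes with trend = TRUE, Benjamini-Hochberg adjustment over all named genes and a threshold of 0.05. The fit was tested on simulated data. The 10 genes and the 10 pathway lists were chosen with earlier results of these data known. Genes named are the 10, SUV39H1, the 3 largest changes per list past the threshold with groups apart, any cell type marker, and the 3 nearest patterns for 4 of the 10; others are marked as named after their values were seen. Other scalings, a filter on dim genes, variance models, probe set averaging, the replicate number as a block and left-out arrays were tried. Human sequences were not used here, so none is printed.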

Additional observations from a re-analysis of the deposited data

How the results depend on the processing

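Under the 12 alternatives the log2 fold change of LGR5 ran from -4.74 to -4.42, NOTUM from -3.61 to -3.42, DKK1 from 4.05 to 4.23 and CD44 from 1.43 to 1.59. The counts of genes called, 2714 higher and 3372 lower, became 3330 and 2782 after centring each array on the median of its named probe sets and ran from 2069 to 2431 and from 2580 to 2891 with 1 array left out. Deviations of same-numbered arrays correlated at 0.044 across genes, which cannot settle whether those arrays were paired. With the replicate number as a block 2722 genes were called higher and 3342 lower. Of the other antagonists outside the cell or at its surface, a list without DKK1, DKK3 was the 1 called higher. That count became 0 with quantile normalization, without an intensity trend, with all probe sets tested together and with the replicate block. Of the hyaluronan and CD44 partners, 2 in place of 4 were higher without an intensity trend. Of the NF-kB, AP-1 and ERK feedback genes, 1 in place of 2 was lower with arrays centred on their medians, without an intensity trend, with all probe sets tested together and with any array left out (1 to 1). With 1 array left out, cytoplasmic inhibitors higher ran from 3 to 5 (6 with all arrays), receptor complex genes higher from 1 to 2, and nuclear effectors lower from 1 to 3. The cause of these shifts was not tested. No detection calls were at hand, so how near background the lowest values lie is unknown.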
